A study of Mus musculus with 3 samples.

Results

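The genes for heparan sulfate proteoglycans and for the enzymes that build and edit their chains were examined in mesangial cells, the contractile cells of the kidney glomerulus. The set was chosen by function and held 39 genes, of which 38 had a probe set assigned to that gene alone. They are 38 of 18685 named genes on the array. Ndst1 was not analysed here. The single group consisted of 3 samples of cells from the renal cortex of adult male CD-1 mice, sorted by fluorescence after glomeruli had been isolated by sieving and broken up with trypsin. Every mouse carried the bacterial artificial chromosome transgene Tg(Meis1-EGFP)FO156Gsat, in which Meis1 regulatory sequence drives the green fluorescent protein, so the sort selected cells in which that sequence was active. Each sample was 1 kidney, none was pooled, and no control population was included. Whether these were kidneys of different animals is not stated, so part of the spread between samples may be technical.

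Heparan sulfate is a long, sulfated sugar chain attached to a small number of core proteins in the matrix and at the cell surface. Its synthesis begins with a linkage tetrasaccharide on a serine of the core protein, continues by addition of alternating sugars, and ends with sulfation at several positions, which sets the growth factors, chemokines and matrix proteins the chain can bind. In the glomerulus the chains are a component of the basement membrane and of the mesangial matrix, and on cell surfaces they act as co-receptors.

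All values are deposited log2 signals of 1 probe set a gene, and SDs are over n = 3 samples. Background was set by probe sets for keratin-associated proteins and for olfactory, trace amine and vomeronasal receptors, which kidney cells are not thought to express. Their 95th percentile served as the threshold, which a gene had to exceed on each of the 3 arrays to be called above it. The threshold was 7.48, 7.46 and 7.40 in samples 1, 2 and 3. A stricter call used the threshold raised by 1 log2 unit. Of 1253 genes of those silent families, 59 (4.71%) passed the threshold and 12 (0.958%) the raised one. The share at the threshold follows from taking the 95th percentile of these same probe sets and is no independent error rate. Probe sets differ in affinity, so each gene was set against the threshold, and values of different genes give no ranking of transcript amounts. The labelled cell type was checked first, with marker lists chosen when earlier results of these data were known. The 8 mesangial markers examined all passed the raised threshold, with Itga8 at 12.94, 12.96 and 12.97, Gata3 at 12.17, 12.27 and 12.27, and Pdgfrb at 12.00, 12.11 and 11.99. Of other markers, 3 of 7 endothelial, 1 of 5 podocyte and 1 of 3 parietal epithelial genes passed the raised threshold on all arrays. The counts were 0 of 7 for tubule and 0 of 5 for macrophage genes. Of all named genes 32.7% passed it. The podocyte gene was Wt1, at 10.24, 10.13 and 10.07, and the parietal gene Cd24a. The tubule gene Umod had 9.51, 9.18 and 8.22 and passed the raised threshold in samples 1 and 2 alone. The threshold without the raise was passed on all arrays by 7 of 7 endothelial, 3 of 5 podocyte and 2 of 3 parietal epithelial genes. The counts there were 4 of 7 for tubule and 2 of 5 for macrophage genes, against 58.0% of all named genes. That call thus did not separate mesangial markers from those of other cell types. In such bulk samples fewer cells of a type and less RNA per cell cannot be told apart.

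Of the 38 measured genes, 25 (65.8%) lay above the threshold on all 3 arrays, against 58.0% of all named genes. The raised threshold was passed by 13 (34.2%), against 32.7% of named genes, and 12 (31.6%) were not above the threshold on any array, against 38.8% of named genes. These shares were near the background, and the distribution within the set was uneven. The core proteins lay above the threshold in 12 of 13 cases (92.3%) and the chain enzymes in 13 of 25 (52%). The share of the enzymes was near the 58.0% of all named genes. The split depended on the height of the threshold. At the 90th percentile of the silent probe sets Xylt2, B4galt7, B3galt6, Extl1, Hs6st1 and Hs6st3 also passed. All of these are chain enzymes, and no further core protein passed there. The median distance from the threshold was 1.21 log2 units for core proteins, 0.54 for enzymes and 0.35 for all named genes.

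**Figure D1:**
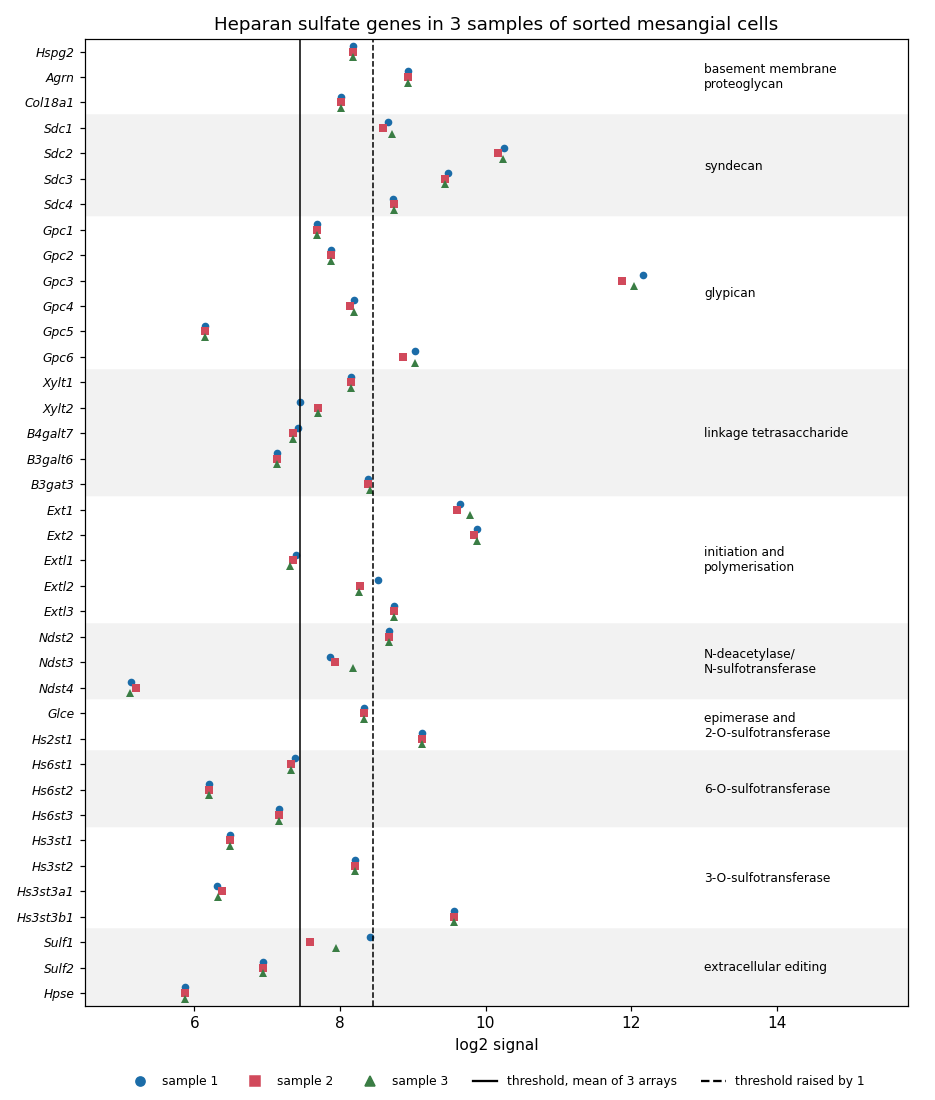
Log2 signal of the 38 measured genes, 1 row a gene, with 1 symbol for each of the 3 samples and the genes grouped by role; the solid line is the threshold (mean of the 3 arrays) and the dashed line the threshold raised by 1. All 4 syndecans lie right of the dashed line, Gpc3 lies farthest to the right at 11.87 to 12.17, and the 3 genes for 6-O-sulfotransferases lie left of the solid line.

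The 3 basement membrane proteoglycans were all above the threshold. Agrn, for agrin, a proteoglycan of the glomerular basement membrane, had a log2 signal of 8.94 on each array and passed the raised threshold. Hspg2, for perlecan, and Col18a1, for collagen XVIII, which carries the endostatin domain, had 8.17 and 8.01 on every array. Both lay less than 1 log2 unit above the threshold, by 0.73 and 0.56. Proteins with which these proteoglycans share the basement membrane were above the threshold as well, in 10 of 10 cases against 58.0% of all named genes, and 9 of the 10 passed the raised threshold, against 32.7%. Among them Nid1, for the linker protein nidogen, had 10.84, 10.82 and 10.84, and the laminin chain genes Lamb1 and Lamc1 averaged 10.14 ± 0.08 and 10.03 (identical on the 3 arrays). The laminin chain genes with the smallest distances were Lama5 at 8.83 on each array and Lama4 at 7.95 ± 0.04.

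All 4 syndecans, the transmembrane carriers of heparan sulfate, passed the raised threshold, against 32.7% of all named genes. Sdc2 had 10.25, 10.17 and 10.24 in samples 1, 2 and 3, and Sdc3 had 9.48, 9.45 and 9.45. Sdc4, whose product sits in focal adhesions, had 8.72, 8.75 and 8.75. Sdc1, best known from epithelia and plasma cells, had 8.67, 8.59 and 8.71, which was 1.21 log2 units above the threshold on average. With the threshold at the 99th percentile of the silent probe sets all 4 remained above it, while Sdc1 and Sdc4 no longer passed the raised one. No syndecan had equal values on all 3 arrays, and the largest difference between arrays was 0.12, for Sdc1.

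The glypicans, which are held to the outer membrane by a lipid anchor, were divided. Gpc3, for a glypican that restrains growth during development, had 12.17, 11.87 and 12.03 in samples 1, 2 and 3. It lay 4.58 log2 units above the threshold, the largest distance among the 38 genes. Gpc6 had 9.03, 8.87 and 9.03 and also passed the raised threshold. Gpc4 averaged 8.18 ± 0.03, and Gpc2 and Gpc1 had 7.88 and 7.69 on each array, all 3 within 1 log2 unit of the threshold. Gpc5 had 6.15 on each array and was not above the threshold. In the RefSeq gene table of GRCm38.p6, Gpc4 and Gpc3 are neighbours on chromosome X and Gpc5 and Gpc6 are neighbours on chromosome 14, with no protein-coding gene between them in either pair. Within each pair the calls differed: Gpc3 and Gpc6 passed the raised threshold, Gpc4 passed the threshold alone and Gpc5 neither. Hs6st2, not above the threshold, lies next to Gpc4 with 2 protein-coding genes between them.

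The promoters of the glypicans at either end of this range are shown for comparison of their CG dinucleotides, printed in capitals, over the 250 bases before the start site (RefSeq, GRCm38.p6). The Gpc3 promoter is chrX:52613975-52614224 on the minus strand and the Gpc5 promoter chr14:115091965-115092214 on the plus strand.
Gpc3: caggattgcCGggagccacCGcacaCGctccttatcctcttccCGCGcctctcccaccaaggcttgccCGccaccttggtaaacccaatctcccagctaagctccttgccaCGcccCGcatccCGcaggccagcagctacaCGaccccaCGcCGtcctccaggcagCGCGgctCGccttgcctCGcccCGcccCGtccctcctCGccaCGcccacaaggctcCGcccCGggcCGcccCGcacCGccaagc
Gpc5: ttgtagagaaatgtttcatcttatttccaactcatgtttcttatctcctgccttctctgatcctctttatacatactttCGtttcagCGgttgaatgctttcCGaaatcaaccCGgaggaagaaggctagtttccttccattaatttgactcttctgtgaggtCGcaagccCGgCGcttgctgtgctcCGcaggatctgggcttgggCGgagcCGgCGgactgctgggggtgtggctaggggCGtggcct
They held 25 and 12 CG dinucleotides. The hexamer GGGCGG, counted with its complement CCGCCC on the other strand, occurred 3 times in the Gpc3 window and 1 time in the Gpc5 window. Of 27018 mouse promoters, 1 a gene, 33.0% held it, but these include genes outside the named genes of the array. Among named genes the share was 62.7% past the raised threshold and 55.7% for others above the threshold. It was 34.0% for those not above it on all arrays.

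Of the 5 enzymes that assemble the linkage tetrasaccharide, 2 were above the threshold and none passed the raised one. The shares of all named genes were 58.0% and 32.7%. Xylt1, for a xylosyltransferase that places the first sugar, had 8.15 on each array, and B3gat3, for the glucuronosyltransferase that completes the tetrasaccharide, had 8.38, 8.38 and 8.41. Xylt2, the other xylosyltransferase gene, had 7.44, 7.70 and 7.70, and thus passed in samples 2 and 3 and not in sample 1. B4galt7 and B3galt6, for the galactosyltransferases that add the middle sugars, averaged 7.37 ± 0.04 and 7.14 (identical on the 3 arrays). They lay 0.07 and 0.31 log2 units below the threshold. At the 90th percentile of the silent probe sets, Xylt2, B4galt7 and B3galt6 all passed.

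Both chain polymerase genes passed the raised threshold, against 32.7% of all named genes. Ext1 had 9.65, 9.60 and 9.79, and Ext2 had 9.89, 9.84 and 9.89 in samples 1, 2 and 3. Their products form the complex that elongates the chain, and the genes lay 2.23 and 2.42 log2 units above the threshold. Extl3, whose product adds the sugar that commits a linkage region to heparan sulfate, had 8.74 on each array and passed the raised threshold. Extl2, a related transferase gene, had 8.52, 8.27 and 8.26, and was above the threshold but past the raised one in sample 1 alone. Extl1 had 7.39, 7.35 and 7.31 and was not above it.

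Among the enzymes that modify the chain, each early step had at least 1 gene above the threshold, and 6-O-sulfation had none. The share of all named genes above it was 58.0%. The N-deacetylase and N-sulfotransferase gene Ndst2, whose product begins the sulfation, had 8.68 on each array and passed the raised threshold. Ndst3 had 7.86, 7.93 and 8.18, less than 1 log2 unit above the threshold, and Ndst4, at 5.13, 5.19 and 5.11, lay farthest below it of the 38 genes. Hs2st1, for the 2-O-sulfotransferase, had 9.13 and Glce, for the epimerase that converts glucuronic to iduronic acid, 8.33, each the same on every array. Hs6st1 had 7.39, 7.33 and 7.33, while Hs6st3 had 7.16 and Hs6st2 6.20 on each array. Hs6st1 and Hs6st3 were within 0.10 and 0.29 log2 units of the threshold and passed at the 90th percentile, whereas Hs6st2 lay 1.25 below it and did not.

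The 3-O-sulfotransferases, which add the rarest modification, were split. Hs3st3b1 had 9.56 on each array and passed the raised threshold. Its close relative Hs3st3a1 had 6.31, 6.38 and 6.33 and was not above the threshold. These genes lie on chromosome 11 with 1 protein-coding gene between them in the RefSeq gene table. Genes so alike in sequence can share hybridisation, which was not tested. Hs3st2 had 8.21 on each array and was above the threshold, and Hs3st1, whose product makes antithrombin-binding sites, had 6.49 and was not. Of the family members outside the set, Hs3st4 at 7.59 and Hs3st6 at 7.66 passed by 0.14 and 0.21 log2 units and Hs3st5 at 6.00 did not, all 3 named after their values were seen. The promoters of the related pair are shown in the same way as above, Hs3st3b1 at chr11:63922285-63922534 on the minus strand and Hs3st3a1 at chr11:64435082-64435331 on the plus strand.
Hs3st3b1: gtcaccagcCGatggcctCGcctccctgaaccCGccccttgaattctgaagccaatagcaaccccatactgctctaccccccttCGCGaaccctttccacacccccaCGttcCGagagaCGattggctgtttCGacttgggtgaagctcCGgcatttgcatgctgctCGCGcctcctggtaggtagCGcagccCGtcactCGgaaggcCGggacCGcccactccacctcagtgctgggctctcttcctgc
Hs3st3a1: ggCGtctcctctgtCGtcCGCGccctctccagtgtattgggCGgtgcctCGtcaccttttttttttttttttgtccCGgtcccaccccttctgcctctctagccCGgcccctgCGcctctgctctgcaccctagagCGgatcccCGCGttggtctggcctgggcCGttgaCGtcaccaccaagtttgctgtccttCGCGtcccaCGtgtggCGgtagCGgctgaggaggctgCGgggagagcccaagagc
They held 17 and 20 CG dinucleotides, so the gene above the threshold had the smaller number here, unlike in the glypican pair. The hexamer GGGCGG or CCGCCC occurred 2 times in the Hs3st3b1 window and 1 time in the Hs3st3a1 window. For the hexamer the gene above the threshold had the larger number in both pairs. The glypican pair was picked by its values, and other members went the other way, as given below.

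Of the 3 genes that edit finished chains outside the cell, Sulf1 alone was above the threshold, against 58.0% of all named genes. Sulf1, for a sulfatase that removes 6-O-sulfates, had 8.41, 7.60 and 7.95 in samples 1, 2 and 3 (7.98 ± 0.41). Its distance above the threshold was 0.93, 0.13 and 0.54 log2 units in the same samples, and at the 99th percentile it was no longer above. Sulf2, for the related sulfatase, had 6.95 on each array, and Hpse, for heparanase, which cuts the chain, had 5.88. Hpse2, for a relative of heparanase without its activity, had 5.90, 6.00 and 5.95 and was not above the threshold either.

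Of the 38 genes, 19 (50.0%) had identical values on all 3 arrays, against 51.1% of named genes, so their SD of 0 is no measure of precision. The 19 others differed by a median of 0.08 log2 units between the highest and the lowest array, against 0.11 over the 9139 named genes with unequal values. A difference over 0.25 log2 units was found for 5 genes, Gpc3, Xylt2, Extl2, Ndst3 and Sulf1, and Sulf1 had the largest at 0.82. Of these 5, Sulf1 and Gpc3 were lowest in sample 2, Xylt2 and Ndst3 in sample 1, and Extl2 in sample 3. Of all 19, 4 were lowest in sample 1, 8 in sample 2 and 3 in sample 3, and 4 had the lowest value on 2 arrays. Over the 9139 named genes the counts were 2632, 1973 and 1892. Among related genes with unequal values, sample 2 was also the lowest for 6 of 10 ligand and receptor and 5 of 8 basement membrane partner genes. The remaining lists did not share this. There it was the lowest for 1 of 13 precursor supply and 2 of 9 chondroitin and dermatan sulfate genes. For other carriers and modifiers the count was 0 of 4 and for lysosomal breakdown 0 of 2. All these counts were made after the values were seen.

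Marker sums are given for the same samples, as summed linear signal in samples 1, 2 and 3. The 7 endothelial markers summed to 4156, 3775 and 4499 and the 5 podocyte markers to 1987, 1860 and 1898, both lowest in sample 2. The sums do not describe each marker. Emcn (10.31, 10.23 and 10.59) and Ehd3 (10.53, 10.14 and 10.58) were lowest in sample 2, while Plvap was highest there (9.33, 9.39 and 9.33). Pecam1 and Cdh5 were lowest in sample 1, and Kdr and Tie1 had equal values. Of the podocyte markers, Synpo was lowest in sample 2 and Wt1 in sample 3. Podxl had equal values, and Nphs1 and Ptpro were highest in sample 3. The 3 parietal epithelial markers summed to 3605, 5285 and 4752 and the 8 mesangial markers to 35100, 36972 and 36030, both lowest in sample 1 and highest in sample 2. Single mesangial markers differed. Itga8, Gata3, Agtr1a and Gja5 were lowest in sample 1, Des in sample 2 and Pdgfrb in sample 3. Cspg4 and Gucy1a1 were equally low in samples 1 and 3. Within the parietal list, Cldn1, for a tight junction protein, had log2 signals of 7.69, 6.67 and 7.68 and Cd24a, for a surface glycoprotein, 11.65, 12.29 and 12.09. The 7 tubule markers summed to 1856, 1728 and 1374 and the 5 macrophage markers to 701, 706 and 686. All 7 endothelial markers were above the threshold, 3 of them (Emcn, Ehd3 and Plvap) by more than 1, while Kdr, Pecam1, Cdh5 and Tie1 were within 0.22 of it. The part of these markers in the values of Sulf1, Gpc3 and the other genes lowest in sample 2 was not tested.

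**Figure D2:**
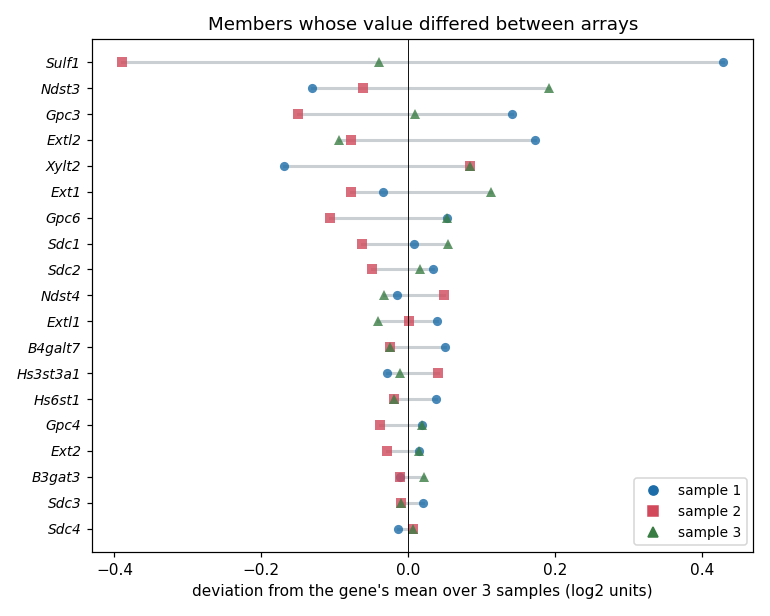
Deviation of each sample from the gene's mean, in log2 units, for the 19 genes whose values differed between arrays, ordered by the size of the difference, with 1 symbol for each of the 3 samples. Sulf1 spans 0.82 log2 units, and 14 of the 19 genes span 0.25 or less.

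Genes around the pathway were counted in the same way. Precursor supply covers the nucleotide sugars, the sulfate donor and their transporters, and 17 of its 20 genes (85.0%) were above the threshold, against 58.0% of all named genes, and 13 (65.0%) passed the raised one, against 32.7%. Ugdh, whose product makes UDP-glucuronic acid, had 9.16, 9.56 and 9.71, Ugp2, for the enzyme that makes UDP-glucose, averaged 9.91 ± 0.02, and Slc35a3, for a Golgi transporter of UDP-N-acetylglucosamine, had 8.67, 9.69 and 9.67. The sulfate donor synthase gene Papss2 had 6.27 on each array and the transporter gene Slc35d2 averaged 7.02 ± 0.05, and both were not above it. In this list 8 of the 13 genes with unequal values were lowest in sample 1, among them Ugdh and Slc35a3, a count made after the values were seen. Over all named genes with unequal values 2632 of 9139 were lowest in sample 1. The summed parietal epithelial and mesangial markers given above were lowest in that sample too, and their part in these values was not tested.

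Chondroitin and dermatan sulfate chains start from the same linkage tetrasaccharide. Of the 16 genes for their synthesis 11 (68.8%) were above the threshold and 7 (43.8%) passed the raised one, against 58.0% and 32.7% of all named genes. The sulfotransferase genes Chst15 and Chst14 averaged 10.04 ± 0.01 and 9.86 ± 0.18, and Csgalnact2, whose product commits the linkage region to chondroitin sulfate, 9.86 ± 0.02. Chst3 and Chst7, for sulfotransferases that act on chondroitin, had 6.87 and 6.82 on each array and were not above it. Of 7 genes for the lysosomal breakdown of heparan sulfate 6 (85.7%) were above the threshold, against 58.0% of all named genes, with the iduronate sulfatase gene Ids at 9.76 ± 0.05, the acetyltransferase gene Hgsnat at 9.56 and the glucuronidase gene Gusb at 8.79. Arsg, for a sulfatase, averaged 7.85 ± 0.07, and Naglu, at 7.36, was 0.09 below the threshold.

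Of 11 other carriers and modifiers 6 (54.5%) were above the threshold and 3 (27.3%) passed the raised one, against 58.0% and 32.7% of all named genes. The 3 were Nrp1, for a co-receptor that can carry glycosaminoglycan chains, with 12.50, 12.57 and 12.57, Srgn, for the intracellular proteoglycan serglycin, with 10.53, 10.60 and 10.67, and Tgfbr3, for betaglycan, with 9.84, 9.87 and 9.84. Spock3, for a testican, had 5.45 and was not above the threshold. Of 26 genes for ligands that bind heparan sulfate and for their receptors 17 (65.4%) were above the threshold and 10 (38.5%) passed the raised one, near the 58.0% and 32.7% of all named genes. Ptn, for the heparin-binding growth factor pleiotrophin, had 13.19, 12.96 and 13.14. Lrp1, for an endocytic receptor, averaged 10.95 ± 0.10, and Robo1, for a receptor of Slit proteins, had 10.66 on each array. Hgf at 6.14 and Fgf7 at 6.25 ± 0.19 were not above it.

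**Figure D3:**
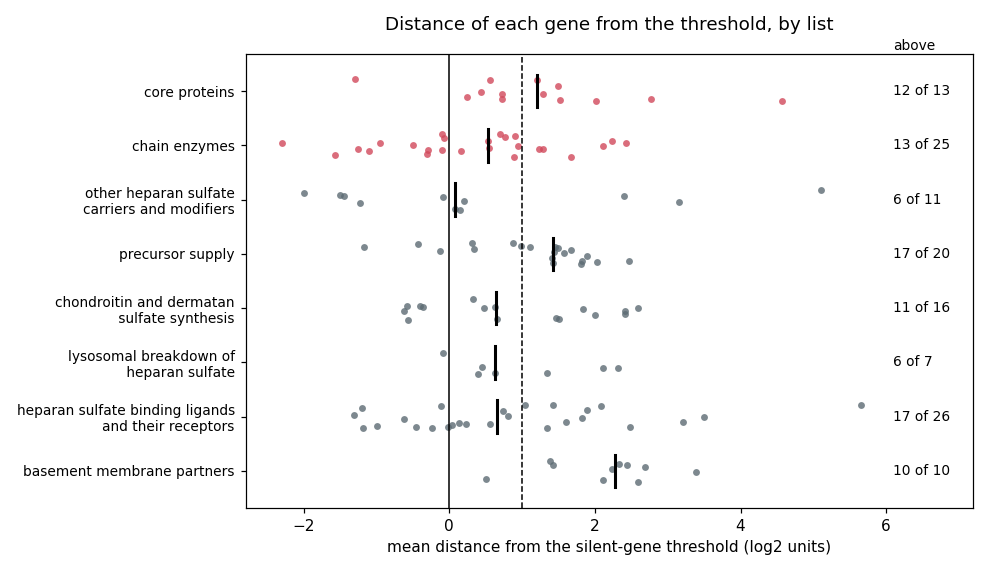
Mean distance from the threshold in log2 units, 1 point a gene, for the core proteins, the chain enzymes and 6 lists of related genes; thick bars are medians, the solid line is the threshold and the dashed line the threshold raised by 1. The numbers at the right count the genes above the threshold on all 3 arrays, 12 of 13 for core proteins and 13 of 25 for chain enzymes.

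Promoters of 30 of the 38 genes were matched in RefSeq (GRCm38.p6), and Sdc2, Gpc1, Gpc6, Xylt1, Ext1, Extl3, Ndst4 and Sulf1 were not matched. All 27018 promoters, which include genes outside the named genes, held a median of 6 CG dinucleotides in the 250 bases before the start site. The members held a median of 17.5. Among the 9 genes past the raised threshold the median was 19 (range 10 to 35), among the 9 others above the threshold it was 18 (range 1 to 30), and among the 12 not above it on all arrays it was 15.5 (range 7 to 38). Over named genes the corresponding medians were 17, 14 and 6. The ranges of the 3 groups of members overlapped widely, and the members with the most CG dinucleotides, B3galt6 with 38, Hs6st1 with 37 and Hs6st3 with 36, were all not above the threshold. The promoter of Ndst3, which was above the threshold, held 1. The hexamer GGGCGG or CCGCCC was present in 8 of 9, 7 of 9 and 6 of 12 promoters of the 3 groups, against 62.7%, 55.7% and 34.0% of named genes in the same groups. It was absent from the promoters of Ext2, past the raised threshold, and of B3gat3 and Ndst3, above the threshold. The promoter of Hs6st1, not above the threshold, held it 6 times. The matches describe letters in these windows and no binding was measured.

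**Figure D4:**
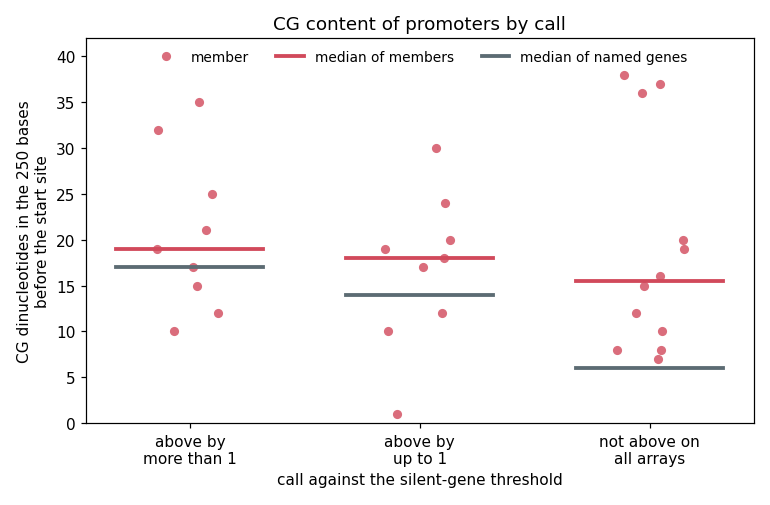
Number of CG dinucleotides in the 250 bases before the start site for 30 heparan sulfate genes (points), by their call against the threshold, with the median of the members and of the named genes in the same group as horizontal bars. The member medians are 19, 18 and 15.5 and those of named genes 17, 14 and 6.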

How the data were processed

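RNA of sorted mesangial cells was amplified once, labelled with biotin and hybridised to a mouse gene array, with 1 array for each sample (per the labels' protocols). Per the submitters' processing notes, the authors used Affymetrix Expression Console, and they deposited log2 signals for 35557 probe sets. The version of that software, its background correction and its summary method are not stated here. That the scale is log2 follows from the range of the values, and scale and centring beyond array medians of 7.53, 7.56 and 7.54 are unknown. Of the probe sets 14310 (40.2%) had identical values on all 3 arrays, which makes SDs too small for many genes. The number of arrays limits the precision.

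Values were used as deposited (Python 3.11.15, pandas 2.3.3, numpy 2.4.6). Probe sets with exactly 1 symbol in the platform annotation (21789) were named, 21698 of them updated by Entrez number with the RefSeq table of GRCm38.p6, and the probe set with the highest mean stood for a gene. The threshold came from 1269 silent probe sets, whose genes were left out of the named genes. With 1 group no test between conditions was made, and genes are not replicates. Named genes are all measured members, and of each related list those at the ends of the mean distance from the threshold (3 at the top, 2 at the bottom), given without order; other genes are said to be named later or are examples of the markers. The members and lists were chosen with earlier results of these data known. Alternatives were other percentiles and silent families, the mean over arrays, other probe set choices and leaving out each sample.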

Additional observations from a re-analysis of the deposited data

How the results depend on the processing

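The counts of heparan sulfate genes depended mainly on the height of the threshold. At the 99th percentile of the silent probe sets (8.35, 8.36 and 8.35) 14 of 38 members were above the threshold. Above it raised by 1 were 6, and 22 were not above it on any array. Of named genes 6599 (35.3%) were above it and 3218 (17.2%) above it raised by 1. The 14 still held all 4 syndecans, Agrn, Gpc3, Gpc6, Ext1 and Ext2, while the 11 lost were Hspg2, Col18a1, Gpc1, Gpc2, Gpc4, Xylt1, Extl2, Ndst3, Glce, Hs3st2 and Sulf1. Agrn, Sdc1, Sdc4, Gpc6, Extl3, Ndst2 and Hs2st1 lost the raised call there and under the next alternative. The related lists then had 3 other carriers, 7 chondroitin, 3 lysosomal and 11 ligand and receptor genes above. With silent probe sets that had 3 different values, an alternative chosen after seeing the data, 16 of 38 members were above, 6 by more than 1. Of named genes 7134 (38.2%) and 3596 (19.2%) passed, with 3 other carriers, 7 chondroitin and 3 lysosomal genes above. At the 90th percentile 31 of 38 members were above the threshold, against 68.8% of named genes. The raised threshold was passed there by 20 members, against 41.6% of named genes, and 7 members were not above the threshold on any array. With olfactory receptors alone, with the mean over arrays and without replicate 1, Xylt2 joined the 25 members above. Each member had 1 probe set, so taking the lowest probe set could change no member's call. Probe sets with several symbols and leaving out sample 2 or 3 changed none. The 19 members with identical values could change on leaving out a sample only through the small differences between array thresholds.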
